A study of Mus musculus with 41 samples.

Results

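Genes of glycolysis and the pentose phosphate pathway were followed through mouse B cell development, from the common lymphoid progenitor (CLP) to Hardy fraction F. A list of 36 genes defined the set: glucose transporters, the enzymes of glycolysis from hexokinase to pyruvate kinase, the fructose 2,6-bisphosphate enzymes, lactate dehydrogenases and monocarboxylate transporters, pyruvate dehydrogenase with its kinases, and 6 pentose phosphate genes. Of these, 31 had a probe set annotated to that gene alone, out of 18193 such genes on the array, and each was represented by its probe set with the highest mean signal. A total of 29 passed the filter on low signals and were tested among 11947 genes. Gpi1, Pfkfb1, Eno1 and G6pdx were not matched to a probe set of their own, and Gapdh had only control probe sets or probe sets that also name other genes. Eno2, the neuronal enolase, reached the array median on 0 of 41 arrays, and Slc16a3, a lactate exporter, on 3, so neither was tested.

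The 7 populations comprised CLP, A and B with 7 arrays each and C, D, E and F with 5 arrays each, 1 array per RNA sample. All were flow sorted from C57BL/6 mice carrying wild-type Pax5, and the labels list no treatment. Arcturus PicoPure was used to extract RNA, and 1-colour Affymetrix arrays gave 1 signal per probe set. As background, fraction A of the Hardy scheme holds pre-pro-B cells, B pro-B cells, C large pre-B with late pro-B cells, D small resting pre-B cells, E immature B cells and F mature B cells. The labels state neither the sorting gates nor the tissue, age, sex or number of animals, so every p-value reflects the scatter among these particular samples alone, part of which may be technical.

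Glycolysis splits glucose into pyruvate for a small yield of ATP, and in dividing lymphocytes much of the pyruvate leaves the cell as lactate. The pentose phosphate pathway branches off after the hexokinase step and supplies NADPH and the ribose of nucleotides. Pro-B and large pre-B cells divide under interleukin 7 and pre-B cell receptor signals, whereas small pre-B cells stop dividing and rearrange their light chain genes.

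Promoter sequences were searched because several glycolytic genes carry E-boxes, the site type bound by Myc and Max, or the core of the hypoxia response element. Whether such letters relate to the changes reported below was not tested. RefSeq (GRCm38.p6) gave the 250 bases before the start of 28 of the 29 tested genes. The letters CACGTG, which read the same on both strands, were present before at least 1 start of 6 of the 28 genes (21.4%): Pfkm, Pfkfb2, Pfkfb3, Ldha, Slc16a1 and Pdk2. Among all promoters in the table, 6.02% held it, and 6.86% of genes had at least 1 such promoter. The shorter ACGTG, searched on both strands and contained in every CACGTG, was found for 14 of the 28 genes, against 18.5% of all genes and 16.6% of all promoters. Both backgrounds cover all 27025 genes with a promoter and not only the genes tested here. A gene with more starts also has more chances of a match. A match describes letters and not a bound site. Sequences are given for Ldha, Slc16a1 and Pfkfb3, called members with CACGTG, and for Pgk1, which holds ACGTG but not CACGTG. Ldha fell from C to D, Slc16a1 from D to E and Pfkfb3 at neither step. Slc16a1 and Pfkfb3 both fell from the CLP to A, and Ldha and Slc16a1 both fell from B to C. These sequences were chosen after their values were seen. Capitals mark the match, and each sequence runs 5′ to 3′ on the gene's strand up to the base before the start.
Ldha, chr7:46845554-46845803, plus strand, matches beginning 145 and 48 bases before the start: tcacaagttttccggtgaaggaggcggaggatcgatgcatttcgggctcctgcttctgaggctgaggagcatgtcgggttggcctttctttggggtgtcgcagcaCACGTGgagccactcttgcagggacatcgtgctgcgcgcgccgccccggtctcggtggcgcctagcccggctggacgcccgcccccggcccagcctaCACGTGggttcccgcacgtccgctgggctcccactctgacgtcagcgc
Slc16a1, chr3:104638414-104638663, plus strand, match beginning 200 bases before the start: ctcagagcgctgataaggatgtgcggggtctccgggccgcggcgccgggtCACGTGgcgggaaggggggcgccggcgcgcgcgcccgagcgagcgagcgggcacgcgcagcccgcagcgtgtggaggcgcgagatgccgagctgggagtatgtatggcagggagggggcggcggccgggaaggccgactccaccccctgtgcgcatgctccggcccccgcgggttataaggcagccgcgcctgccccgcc
Pfkfb3, chr2:11502091-11502340, minus strand, match beginning 53 bases before the start: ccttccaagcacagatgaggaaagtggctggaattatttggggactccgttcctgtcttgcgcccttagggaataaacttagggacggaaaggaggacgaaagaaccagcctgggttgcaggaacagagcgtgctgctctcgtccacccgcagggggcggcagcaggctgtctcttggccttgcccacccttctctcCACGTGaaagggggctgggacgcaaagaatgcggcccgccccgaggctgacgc
Pgk1, chrX:106186850-106187099, plus strand, ACGTG or its reverse complement beginning 150 and 131 bases before the start: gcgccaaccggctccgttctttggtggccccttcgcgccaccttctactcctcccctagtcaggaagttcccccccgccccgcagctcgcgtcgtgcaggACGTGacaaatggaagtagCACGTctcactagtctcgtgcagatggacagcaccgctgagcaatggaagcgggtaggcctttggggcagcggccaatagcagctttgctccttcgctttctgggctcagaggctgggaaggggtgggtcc

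The arrays had been scaled to the same trimmed mean of 500, and their median signals ran from 69.1 to 153.1. Fraction A was the least uniform population: its arrays correlated with one another at 0.781 to 0.885 on average, against 0.903 or more within every other population. The ratio of the 3′ to the 5′ Gapdh control probe sets, a sign of RNA and amplification quality, was 6.40 to 33.8 in A and at most 10.8 elsewhere. The sorted cells were checked against marker lists by summed signal. The sum of 5 B lineage markers was 849 to 9919 in A and 10068 or more in every other population, while 6 NK cell markers summed to 28437 to 56213 in A against 6403.5 or less elsewhere, so by these markers A was not a plain B lineage population. Neutrophil markers (8 genes) summed to 51778 to 72468 in C, 17539 to 23680 in D and 2578 to 19273 in B. NK markers summed to 1460.5 to 6403.5 in C, 783 to 1197 in D and 1021 to 1590 in B. By gene, 4 of the 6 were called up in C vs B and 5 down in D vs C, beside 14.2% and 13.6% of all genes. The erythroid marker sum had a median of 3917 in C, 1328 in D and 326 in B. E array 2 stood apart within E, with the highest neutrophil (93877), macrophage (11353), erythroid (10422.5) and pro-B and pre-B marker sums (20229.9). The part of these other cells in the results that follow was not tested unless a value is given, and in sorted bulk samples fewer cells of a type and less RNA per cell cannot be told apart.

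Most tested members varied along the path, as did most genes. By the moderated F-test of limma over the 7 populations, with Benjamini-Hochberg adjustment, 25 of 29 members passed an adjusted p of 0.05, beside 73.3% of all genes tested. Those that did not were Hk1 (adjusted p = 0.0910), Aldoc (0.156), Pfkfb4 (0.162) and the transaldolase Taldo1 (0.255). The lowest mean was in fraction D for 9 members (31.0%, against 12.9% of all genes) and in F for 8 (27.6%, against 15.9%). Highest means were most frequent in the CLP, with 8 members (27.6%, against 20.1% of all genes), and the CLP also held the most highest means among all genes. Members with their lowest mean in D included Slc2a3, Hk2, Aldoa, Ldha, Pdk1 and Tkt.

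**Figure D1:**
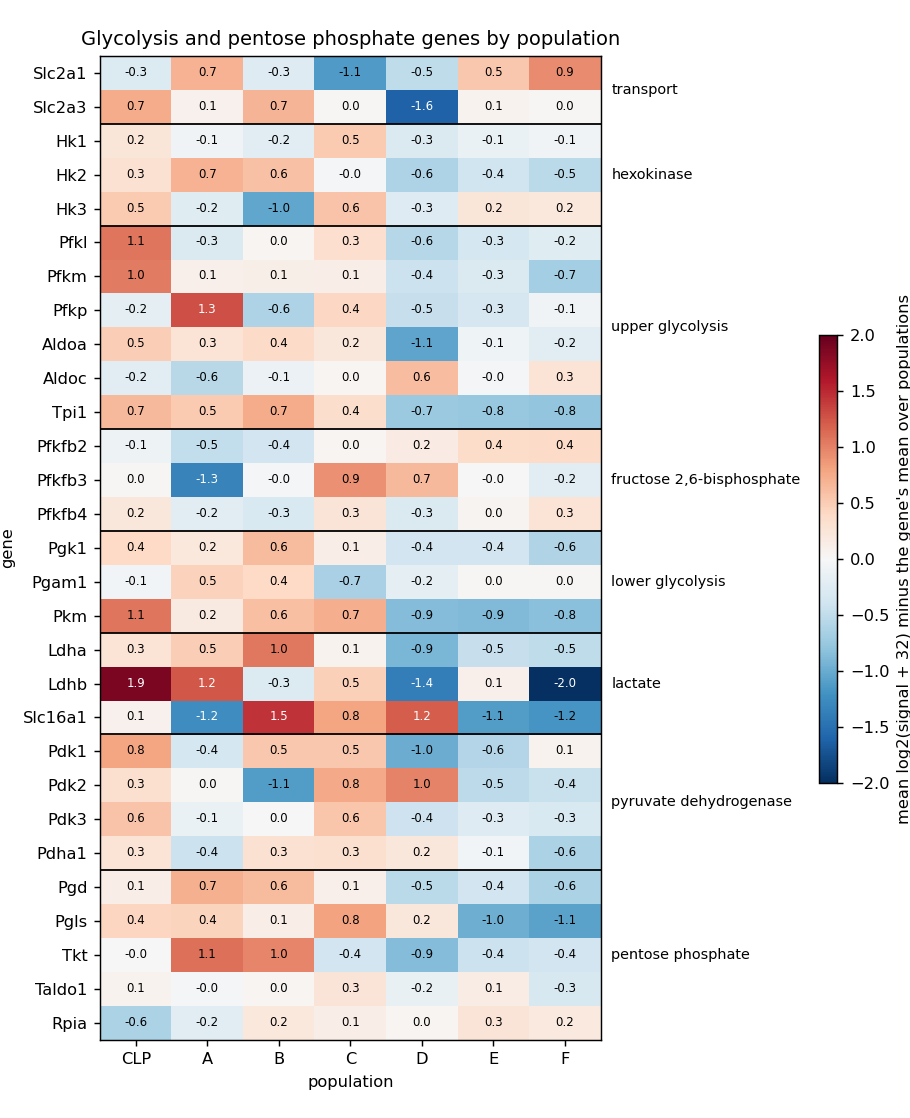
Mean log2(signal + 32) of the 29 tested genes (rows, grouped by role) in each population (columns), with the gene's mean over the 7 populations subtracted; red is above and blue below that mean, and the numbers are the plotted values. Aldoa, Tpi1, Pkm and Ldha are above their mean from the CLP to C and below it from D onwards, while Slc16a1 is high in B, C and D and Slc2a1 highest in F.

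Between neighbouring populations, the main fall of the set was from fraction C to fraction D. In D vs C, 11 of 29 members fell (37.9%) and 1 rose, against 13.6% of all genes falling and 7.46% rising (limma over all 11947 genes, Benjamini-Hochberg adjusted p under 0.05, as for every call). The median log2 difference was -0.58 for the members and -0.10 for all genes, and 23 of 29 members were lower in D, beside 56.2% of all genes. Counting both directions, 12 of 29 members were called, beside 21.1% of all genes. No array overlapped between C and D for 16 members, beside 28.8% of all genes. Against pro-B cells the picture was similar: in D vs B, 11 members fell and 2 rose, where 14.7% of all genes fell and 15.9% rose, with a median of -0.42 for the members and 0.08 for all genes, and the arrays did not overlap for 13 members, beside 19.8% of all genes. Centring each array on its median changed the split in D vs B to 1 up and 18 down. It moved the median of all genes from 0.08 to -0.33, and the share of all genes called after centring is not given here. Both comparisons share the D arrays. C carried more neutrophil marker signal than D, as given above, and no proliferation gene was called down in D vs C. The part of other cells in the fall was not tested.

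Steps before and after D moved members in both directions. In A vs CLP, 6 members rose and 9 fell, beside 11.5% and 25.5% of all genes, a share of called members (51.7%) above the 37 percent of all genes called, and the arrays did not overlap for 4 members, beside 9.39% of all genes. With quantile normalization the split was 3 up and 8 down and with median centring 7 up and 6 down, as the median of all genes went from -0.22 to -0.11 and 0.01. In B vs A, 7 rose and 5 fell (background 16.8% and 14.5%), with no overlap for 2 members (5.11% of all genes). In B vs CLP, which leaves out A, 5 rose and 5 fell (8.77% and 18.9%), or 8 up and 3 down after median centring, which moved the median of all genes from -0.20 to 0.22. In C vs B, 5 rose and 7 fell (14.2% and 8.8%). After median centring the split was 2 up and 9 down, as the median of all genes moved from 0.19 to -0.23. The shares of all genes called under these alternative normalizations are not given here.

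The later steps gave fewer calls, for the members and for all genes. In E vs D, 3 members rose and 3 fell, beside 3.89% and 4.21% of all genes. Counting both directions, 6 of 29 were called, beside 8.1% of all genes. The D and E arrays did not overlap for 12 members, beside 18.5% of all genes. In F vs E no member was called (0 of 29, beside 0.469% of all genes, 0.259% up and 0.209% down), and 3 had an unadjusted p under 0.05. A fit of only those 2 populations or one with array weights called 3, and the share of all genes called in those fits is not given here. The arrays did not overlap for 3 members, beside 6.3% of all genes. Ldhb came nearest, with a log2 difference of -2.14 and an adjusted p of 0.0507. From end to end, in F vs CLP, 15 members fell and 2 rose, beside 26.6% and 15.2% of all genes (17 of 29 called, beside 41.8%), with medians of -0.72 for the members and -0.15 for all genes.

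**Figure D2:**
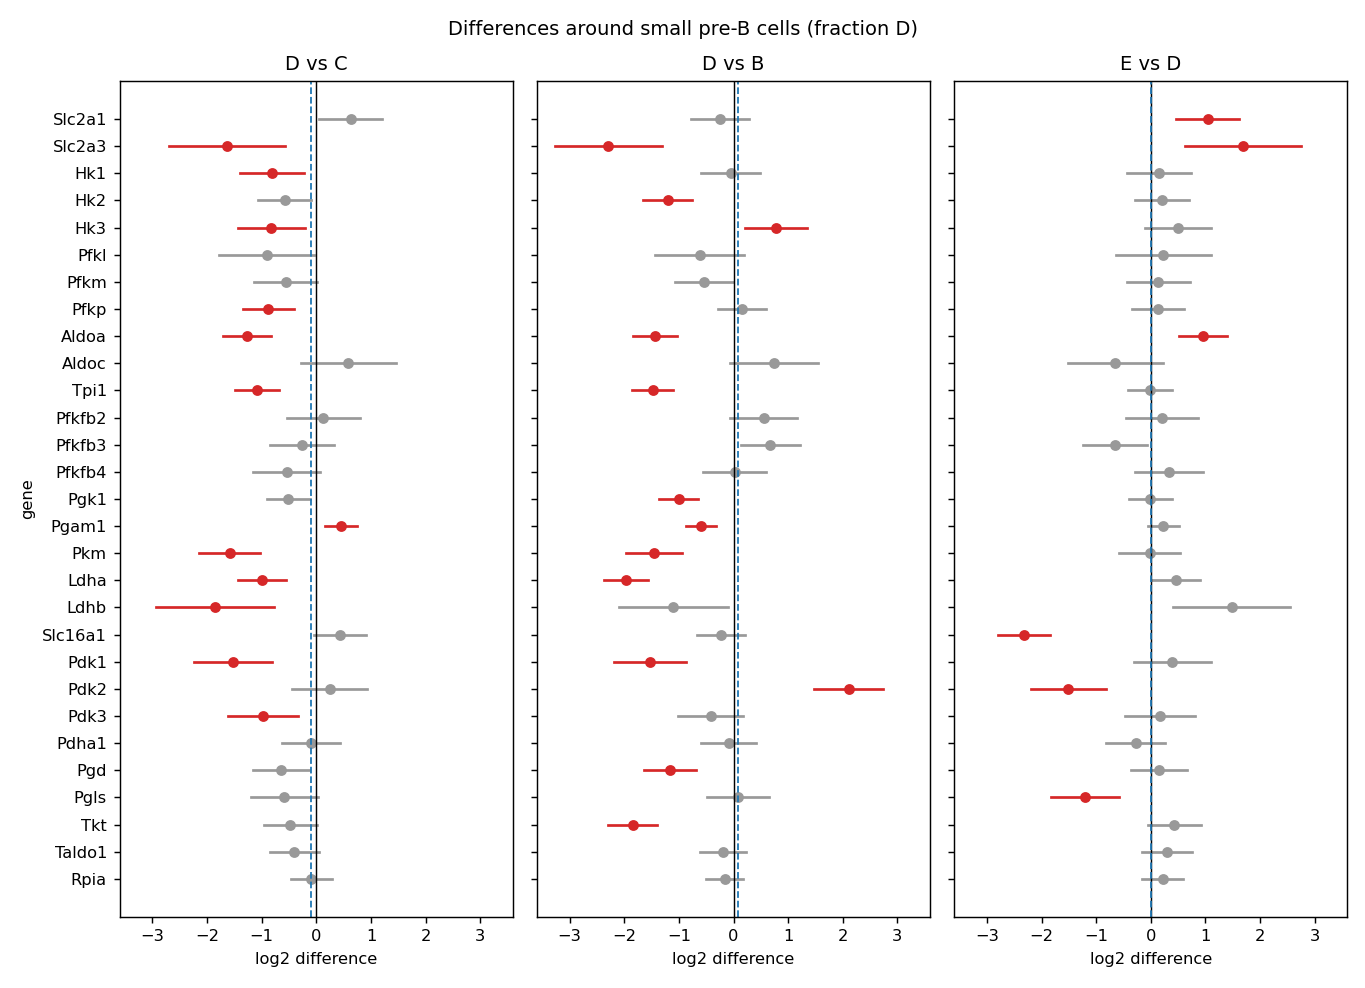
Log2 differences of the 29 tested genes (first minus second population) in D vs C, D vs B and E vs D; bars are 95% confidence intervals from the limma fit, red marks called genes, the black line is 0 and the dashed blue line is the median of all genes tested. Most called genes lie left of 0 in D vs C (11 of 12) and in D vs B (11 of 13), and called genes divide evenly in E vs D.

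Glucose enters lymphocytes mainly through the facilitative transporters encoded by Slc2a1 and Slc2a3, and these 2 genes gave different patterns. Slc2a1 signals were 1166, 1007, 779, 1102 and 845 on the 5 C arrays, 2002, 1893, 1063, 1472 and 1350.3 on the D arrays, and 3695, 3115, 2968, 2966 and 3123 on the E arrays. The E arrays all lay above the D arrays, whereas C and D overlapped. Slc2a1 rose by 1.04 ± 0.29 on the log2 scale in E vs D (SE, adjusted p = 0.0122), a call lost without D array 3 (0.92, adjusted p = 0.0556) and after median centring, and in C vs B it fell by 0.88 ± 0.27 (adjusted p = 0.0129), which neither of its other 2 probe sets called. F arrays held 3854, 4719, 4118, 4870.5 and 3617, all above the CLP arrays (lowest 1438, median 1784, highest 2439), and the gene rose in F vs CLP (1.22 ± 0.27, adjusted p = 2.51e-04). The A arrays spread from 1378 to 11682 (median 3629), and the rise in A vs CLP (0.97) and the fall in B vs A (-0.95) were both lost in a fit of the 2 populations alone.

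Slc2a3, a transporter of high glucose affinity, had its lowest signals in D. Its D arrays read 295, 293, 296, 214 and 197, below all C arrays (1170.3, 1530.4, 667, 503 and 784) and all E arrays (953, 1888, 986, 743 and 432). The fall in D vs C was -1.64 ± 0.52 (adjusted p = 0.0208) and the rise in E vs D 1.69 ± 0.52 (adjusted p = 0.0330). Both calls depended on single arrays: the first was lost without C array 1 or 2 (-1.53 to -1.44, adjusted p 0.0546 to 0.0695) and the second without any 1 of 7 arrays (1.43 to 1.74, adjusted p up to 0.12), E array 2 among them. Averaging the probe sets also ended the call in D vs C. The other 3 probe sets of the gene gave 0 calls in D vs C and 2 in E vs D, all in the same direction where called. Relative to B, where 6 of 7 arrays lay between 1112 and 2474 and 1 read 322, the fall was -2.30 ± 0.49 (adjusted p = 3.33e-04).

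Hexokinases trap glucose in the cell as glucose 6-phosphate. Hk2, the inducible isoform of dividing cells, read 609.8, 628, 478, 425 and 423 on the D arrays. In B it ran from 976 to 2437 (median 996), above every D array. It fell in D vs B by 1.21 ± 0.23 (adjusted p = 6.66e-05), and in D vs C the difference of -0.58 missed the threshold (adjusted p = 0.0823). Hk2 was also lower in F than in the CLP (-0.85 ± 0.23, adjusted p = 0.00224).

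Hk3, a hexokinase found mainly in myeloid cells, and Hk1, the widely expressed isoform, both rose in C vs B, Hk1 by 0.76 with a call lost without B array 6 or 7 or C array 3, 4 or 5 (0.61 to 0.73, adjusted p 0.0738 to 0.139) and with quantile normalization or median centring. Hk3 read 359, 276, 296, 260.3 and 334 on the C arrays against 30.9 to 156 in B (median 86.1), and rose by 1.60 ± 0.28 (adjusted p = 3.72e-05). It was lower in B than in the CLP (-1.55 ± 0.26, adjusted p = 1.10e-05). These are the populations in which the neutrophil marker sum was high (CLP, median 27829; C, median 57978) and low (B, median 6310). In A the neutrophil marker sum (median 27758) was close to that of the CLP. By gene, 6 of the 8 markers were called down in A vs CLP (median log2 difference -1.79), beside 25.5% of all genes. Hk3 was lower in A than in the CLP (-0.76, adjusted p = 0.0169). That call was lost with quantile normalization, after median centring and in a fit of both populations alone. F had a lower neutrophil marker sum than A (median 14274) and a higher mean Hk3 signal (234 ± 47.8 against 171 ± 69.6, SD, n = 5 and 7). By gene, 2 of the 8 markers were called down in F vs CLP (median -0.71), beside 26.6% of all genes. The sum and the single markers thus order A and F differently, and the part of neutrophils in the Hk3 signal was not tested. The falls of Hk3 (-0.82) and Hk1 (-0.81) in D vs C were each lost without most single arrays (adjusted p up to 0.103 and 0.141), and D was also lower in neutrophil markers than C.

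Upper glycolysis, from the phosphofructokinases to triose phosphate isomerase, gave 3 falls among 6 tested members in D vs C and no rise. Of all genes, 13.6% fell and 7.46% rose there. Aldoa, the main aldolase of most tissues, read 5186, 4961, 2408, 2838 and 3600.5 in C, 1185, 1361, 1631, 1636 and 1669 in D, 2536, 3157, 2841, 2920.1 and 3200.4 in E and 2405, 2499, 2831, 2912 and 2684 in F. Every D array was below every array of C, E and F. The gene fell in D vs C by 1.27 ± 0.22 (adjusted p = 3.61e-05), fell in D vs B by 1.44 ± 0.20 (adjusted p = 6.03e-07) and rose in E vs D by 0.96 ± 0.22 (adjusted p = 0.00196). In D vs C and in E vs D, 3 of the 4 remaining Aldoa probe sets gave the same call and 1 gave none. All of its probe sets carry the suffix that Affymetrix gives to probes able to bind other transcripts, and the fall of -0.72 in F vs CLP was called by none of the other 4.

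Tpi1, which interconverts the triose phosphates, went down at the same step and stayed down. Signals of 6266, 5996, 3414, 3647 and 2814 in C were followed by 2365, 1872, 2150, 1682 and 1818 in D. The E arrays held 1633, 1914, 1856, 1781 and 2623 and overlapped with D. Tpi1 fell in D vs C by 1.09 ± 0.20 (adjusted p = 9.21e-05) and in D vs B by 1.48 ± 0.18 (adjusted p = 5.09e-08), and its difference in E vs D was not called. C arrays 1 and 2 were the higher ones for Tpi1, Aldoa, Pkm, Pgk1 and Ldha alike, and leaving out either of them kept the calls of Tpi1, Aldoa, Pkm and Ldha in D vs C.

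The 3 phosphofructokinase genes, whose products catalyse the committed step, did not move as one. Pfkp, the platelet isoform, was highest in A (1907 to 5116, median 2370.4), where no array overlapped with the CLP (675 to 1071) or B (372 to 912). It rose in A vs CLP by 1.49 ± 0.20 (adjusted p = 1.08e-07) and fell in B vs A by 1.91 ± 0.20 (adjusted p = 1.33e-10), in the population that also carried the NK markers. Pfkp rose again in C vs B (1.03 ± 0.22, adjusted p = 3.75e-04), a call that was lost after median centring (0.61) and that neither of its other 2 probe sets gave (0.69 and 0.10). It fell in D vs C (-0.88 ± 0.23, adjusted p = 0.00503), as did 1 of those 2. Pfkl, the liver isoform, and Pfkm, the muscle isoform, were highest in the CLP and lower in F, with differences of -1.30 ± 0.40 (adjusted p = 0.00795) and -1.72 ± 0.27 (adjusted p = 1.16e-06). Of the other 2 Pfkl probe sets, 1 fell in F vs CLP (-1.44) and 1 rose (1.21), so the direction of that gene depends on the probe set. Aldoc, the brain aldolase, reached the array median on 9 arrays and gave no call in any comparison by its representative probe set. Its other probe set was called down in B vs CLP (-1.13, limma adjusted p = 0.0111) and was also called in F vs CLP.

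Fructose 2,6-bisphosphate activates phosphofructokinase, and the Pfkfb enzymes make and break it. Pfkfb3, the isoform with the strongest bias to synthesis, was the only 1 of 3 tested members of this group with a call by its representative probe set. It was lowest in A (121 to 684, median 533), where no array reached the lowest CLP array (781), and fell in A vs CLP by 1.35 ± 0.24 (adjusted p = 2.83e-05). In B it read 572 to 1754 (median 1286) and had risen by 1.32 ± 0.24 (adjusted p = 4.43e-05). C arrays read 1709, 1769, 2271, 2341 and 2059, a rise of 0.93 ± 0.27 over B (adjusted p = 0.00924) that was not called after median centring. The other Pfkfb3 probe set gave no call in A vs CLP, B vs A or C vs B. D arrays held 1433, 1629.9, 2073, 1768 and 1545 and overlapped with C, and the difference of -0.26 was not called (adjusted p = 0.566). Pfkfb3 thus gave no fall at the step where Aldoa and Tpi1 fell. Pfkfb2 and Pfkfb4 gave no call in any of the 9 comparisons by their representative probe sets. Other probe sets of Pfkfb2 were called down in A vs CLP (-0.61, limma adjusted p = 0.0494, and -0.79, adjusted p = 0.0224). The mean of its probe sets was called there too (-0.59, adjusted p = 0.00393).

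Lower glycolysis yields the ATP of the pathway. Pkm, pyruvate kinase of dividing and muscle cells, had signals of 3785, 3406, 2088, 2252.5 and 2229 in C and of 839, 1369.7, 760.4, 679 and 827 in D. No D array reached the lowest C array, and the log2 difference of -1.59 ± 0.28 (adjusted p = 4.64e-05) was the third largest among members in D vs C. E (864, 1235, 849, 782.5 and 651) and F (929, 1156, 768, 896 and 748) stayed at the level of D, and Pkm was lower in F than in the CLP (-1.89 ± 0.26, adjusted p = 8.76e-08).

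Pgk1, phosphoglycerate kinase, fell in D vs B by 1.00 ± 0.18 (adjusted p = 3.41e-05), from 6608 to 10285 in B (median 7840) to 4344, 4529, 4432, 3456 and 3916 in D. Neither of its other 2 probe sets was called there (-0.04 and -0.56), and the difference was -0.54 when probe sets were averaged. In D vs C its difference of -0.51 ± 0.19 narrowly missed the threshold (adjusted p = 0.0525). Pgam1, the mutase of the next step, ran the other way between C and D. Its C arrays read 5506, 5013.5, 3824, 3652 and 3973 and its D arrays 5958, 6623, 6711, 5586 and 4942, a rise of 0.45 ± 0.14 (adjusted p = 0.0199) after a log2 difference of -1.04 ± 0.13 in C vs B (adjusted p = 1.51e-07). The rise in D vs C was lost without C array 3 or 4 or D array 2 or 3 (0.39 to 0.41, adjusted p 0.0523 to 0.0662) and after median centring.

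**Figure D3:**
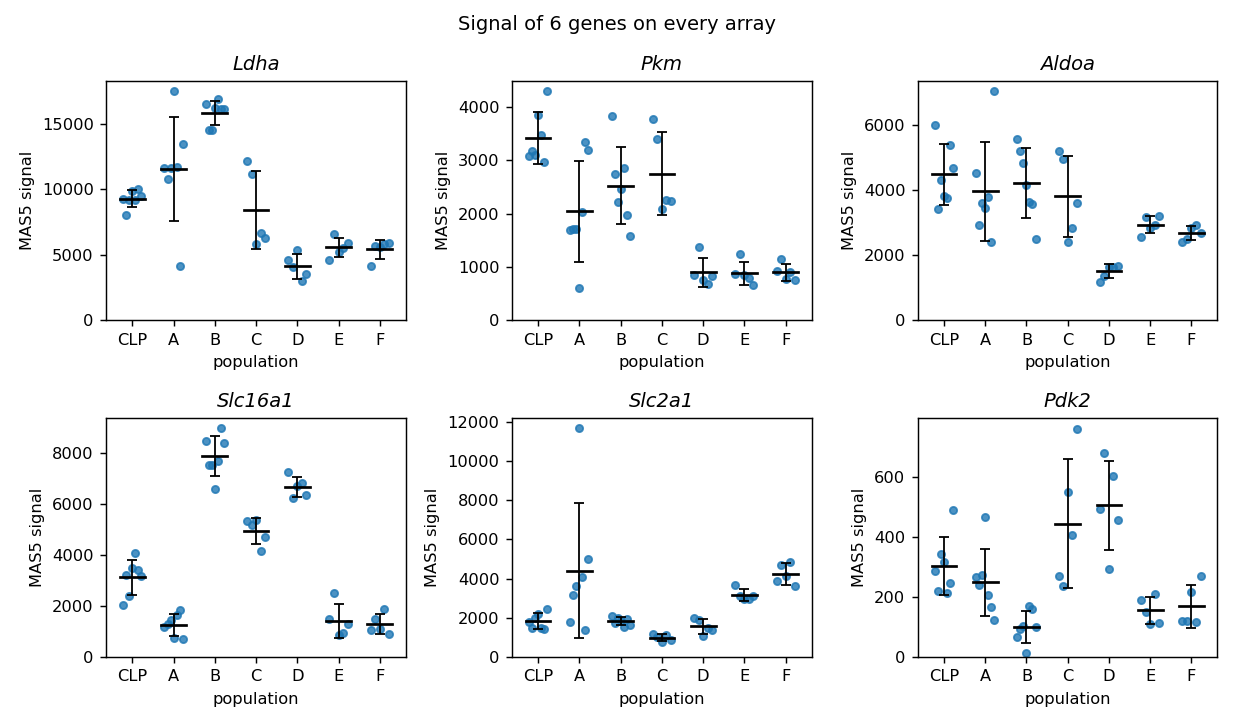
MAS5 signal (linear axis from 0) on every array for Ldha, Pkm, Aldoa, Slc16a1, Slc2a1 and Pdk2 by population; dots are arrays, horizontal lines means and bars ± 1 SD. Ldha peaks in B, between 14514 and 16867, Aldoa is lowest in D, and Slc16a1 drops from 6221 or more in D to 2502 or less in E.

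Lactate is made from pyruvate by the lactate dehydrogenases and leaves through monocarboxylate transporters. Ldha, the muscle-type subunit, peaked in pro-B cells: B arrays read from 14514 to 16867 (median 16123) and CLP arrays from 8046 to 10026.5 (median 9237). It rose in B vs CLP by 0.77 ± 0.18 (adjusted p = 0.00137) without overlap, a call not kept with quantile normalization. C arrays held 12141, 11136, 5781, 6682 and 6234 and D arrays 4612.5, 4073, 5362, 2961 and 3496. Each step was a fall with no overlap, with log2 differences of -0.98 ± 0.20 in C vs B (adjusted p = 3.20e-04) and -0.99 ± 0.22 in D vs C (adjusted p = 8.77e-04). With quantile normalization the difference in C vs B was -0.39 and not called. From B to D the difference came to -1.97 ± 0.20 (adjusted p = 6.53e-10). E (4625, 6568, 5231, 5535 and 5892.5) overlapped with D, and the difference of 0.46 was not called.

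Ldhb, the heart-type subunit, was highest in the CLP (618 to 1831, median 780.3) and lower in B (142 to 274), with no overlap and a log2 difference of -2.16 ± 0.45 (adjusted p = 2.96e-04). It read 513, 349.8, 272, 217 and 341 in C, 71.6, 125, 53.5, 126 and 11.7 in D, 189, 392, 196, 167 and 347 in E, and 4.3, 6.8, 72.2, 156 and 3.7 in F. The D arrays lay below all C and E arrays. Ldhb fell in D vs C by 1.85 ± 0.53 (adjusted p = 0.00988), and from the CLP to F by 3.92 ± 0.49 (adjusted p = 1.83e-08). With signals this low the pseudocount sets much of the size: over the alternatives the F vs CLP difference ran from -5.63 to -2.34.

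Slc16a1, which encodes the monocarboxylate transporter MCT1, had the largest differences of any member in B vs A and in E vs D. The A arrays read 688 to 1816 (median 1299), the CLP arrays 2042 to 4088 (median 3220) and the B arrays 6593 to 8959 (median 7660.3), with no overlap between any pair of these. The gene fell in A vs CLP by 1.33 ± 0.20 (adjusted p = 1.07e-06) and rose in B vs A by 2.69 ± 0.20 (adjusted p = 7.83e-15). Skipping A, the rise in B vs CLP was 1.36 ± 0.20 (adjusted p = 1.43e-06). D arrays kept high signals of 7242, 6221, 6686, 6796 and 6329.8, above all C arrays (5308, 5159.5, 5367, 4164.5 and 4691), and the difference of 0.43 in D vs C was not called, while the gene's other probe set was called up (1.53). The E arrays then read 1468, 2502, 849.6, 924 and 1280.5, far below D, a log2 difference of -2.32 ± 0.23 (adjusted p = 9.67e-10). The highest E value was on array 2, which also carried the most pro-B and pre-B marker signal, and the call was kept without it. Ldha, Pkm, Aldoa and Tpi1, which fell in D vs C, gave no fall in E vs D. An earlier fall of Slc16a1 in C vs B (-0.67, adjusted p = 0.0209) was lost without C array 4 (-0.61, adjusted p = 0.0622) and with quantile normalization (-0.32), and the other probe set did not give it.

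Pyruvate dehydrogenase admits pyruvate to the citric acid cycle, and the Pdk kinases switch it off. Pdk1, a target of hypoxia signalling, read 1302, 1566, 1187, 2213 and 1689 in C and 456, 661, 489, 448 and 579 in D, without overlap. It fell in D vs C by 1.52 ± 0.35 (adjusted p = 0.00142) and in D vs B by 1.53 ± 0.33 (adjusted p = 3.48e-04). The other 3 Pdk1 probe sets were called down in D vs C as well.

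Pdk2, a broadly expressed kinase of the same step, followed an opposite course. B arrays read 13 to 169 (median 99.1), C arrays 269, 236.5, 552, 407 and 762 and D arrays 495, 681, 292, 605 and 459. Pdk2 rose in C vs B by 1.86 ± 0.32 (adjusted p = 2.20e-05) and was 2.11 ± 0.32 higher in D than in B (adjusted p = 1.87e-06). In E it read 191, 149, 110, 211 and 114, below all D arrays, a log2 difference of -1.51 ± 0.34 (adjusted p = 0.00179). Pdk3 fell in D vs C by 0.97 ± 0.32 (adjusted p = 0.0240), a call lost without D array 4 (-0.90, adjusted p = 0.0633). Pdha1, the catalytic subunit of the complex itself, gave no call between B and F in neighbouring populations and was lower in F than in the CLP (-0.90 ± 0.25, adjusted p = 0.00285). Its other probe set was not called in F vs CLP. That probe set was called up in B vs CLP (0.51, limma adjusted p = 0.0338), where the representative one was not called.

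By their representative probe sets, the pentose phosphate genes gave 0 calls in D vs C among 5 tested by limma, beside 21.1% of all genes. At an unadjusted p under 0.05 there was 1. In D vs B 2 of them fell, beside 14.7% of all genes. Another probe set was called down in D vs C for 2 of the 5, Tkt (-1.33) and Pgd (-1.05), so the count of 0 depends on the probe set chosen. Tkt, the transketolase that links the pathway back to glycolysis, read 16751 to 35201 in B (median 20709.9) and 6557, 6256, 6394, 5691 and 6101 in D. Its arrays did not overlap, and the difference was -1.84 ± 0.22 (adjusted p = 2.64e-08). By this probe set most of it lay in C vs B (-1.37 ± 0.22, adjusted p = 1.29e-05), with -0.48 in D vs C. Of the other 2 probe sets, 1 was called down in D vs B (-1.76) and placed most of the fall in D vs C (-1.33, called) rather than C vs B (-0.44, not called). Neither of them was called in A vs CLP or B vs CLP, so the rises of Tkt in A vs CLP (1.12) and B vs CLP (1.00) rest on 1 probe set. Pgd, 6-phosphogluconate dehydrogenase, fell in D vs B by 1.16 ± 0.23 (adjusted p = 1.85e-04), from 4331 to 14953 in B (median 6452) to 2796, 3078, 3045, 3192 and 2731 in D, and 2 of its other 3 probe sets gave the same call.

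Pgls, the lactonase between the oxidative steps, fell later. D arrays read 922, 1097, 726, 1044 and 1036 and E arrays 382, 493, 412, 484 and 263, with no overlap and a log2 difference of -1.20 ± 0.31 (adjusted p = 0.00644). Rpia, which makes ribose 5-phosphate, was the pentose phosphate gene that rose from end to end. CLP arrays read 1276 to 3231 (median 1919) and F arrays 3023, 3666, 4131, 3421 and 3606, a rise of 0.84 ± 0.17 (adjusted p = 9.97e-05), and in B it was already 0.85 ± 0.16 higher than in the CLP (adjusted p = 5.41e-05).

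Pairs of isozymes were compared as ratios within an array, which shows unequal change of the pair and not which of them is more abundant. Of 9 pairs, 7 had both genes tested, and 23 of 63 two-sided exact permutation tests passed a Benjamini-Hochberg adjusted p of 0.05. Ldha relative to Ldhb rose by 2.93 on the log2 scale in B vs CLP (exact p = 5.83e-04, adjusted p = 0.0157; 7 against 7 arrays without overlap), dropped by 1.73 in C vs B and rose by 2.10 in F vs E (exact p = 0.00794, the smallest that 5 against 5 arrays can give; adjusted p = 0.0278). Pdk1 relative to Pdk2 averaged 3.73 in B, 1.85 in C, 0.09 in D and 1.99 in E, and the differences in C vs B (-1.88), D vs C (-1.76), D vs B (-3.64) and E vs D (1.91) each passed without overlap. Slc2a1 relative to Slc2a3 rose by 2.27 in D vs C, also without overlap. Hk1 relative to Hk2 rose by 1.38 in C vs B, with overlapping arrays. The ratio of Aldoa to Aldoc dropped by 1.22 in F vs CLP with the representative probe sets and was 0.053 when probe sets were averaged per gene.

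**Figure D4:**
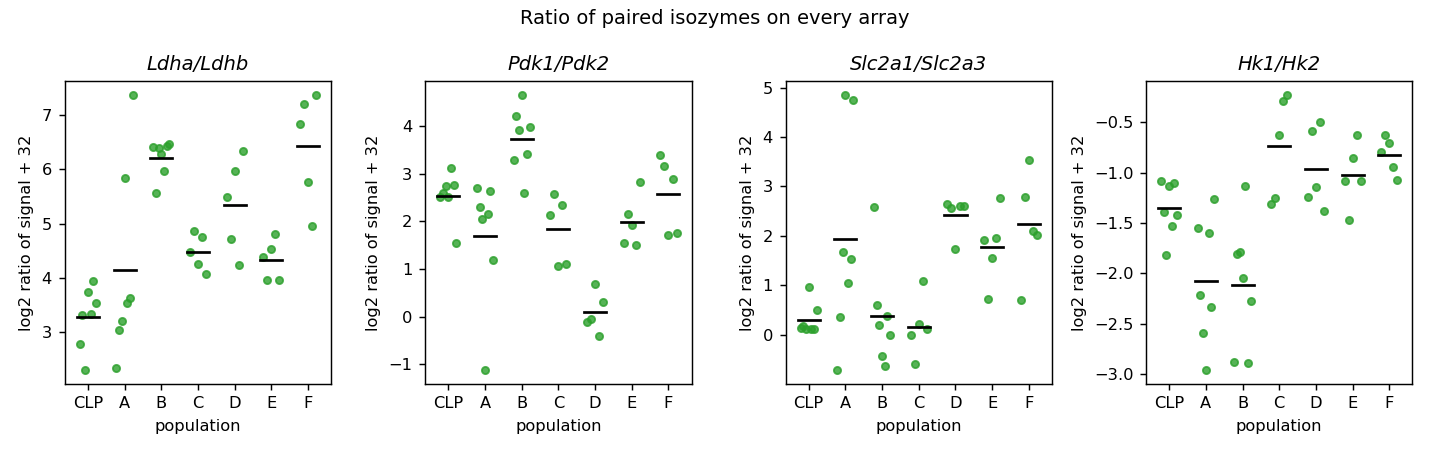
Log2 ratio of (signal + 32) for 4 isozyme pairs on every array (dots) with the population mean (line). The Pdk1 to Pdk2 ratio falls from B through C to D and is higher again in E, and the Ldha to Ldhb ratio is highest in B and F. In F the median Ldhb signal was 6.8, below the pseudocount.

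Genes of cell division were counted beside the metabolic genes. A list of 12 proliferation genes, 11 of them tested, was called 0 up and 6 down in C vs B and 3 up and 0 down in D vs C. In D vs B, where 11 metabolic genes fell, the list was called 0 up and 3 down (median log2 difference -0.44). In E vs D it was called 0 up and 9 down (median log2 difference -1.44). Among all genes, 8.8% fell in C vs B, 7.46% rose in D vs C, 14.7% fell in D vs B and 4.21% fell in E vs D. Those that rose in D vs C were Bub1, a mitotic checkpoint kinase (0.81), Rrm2, which supplies deoxynucleotides (0.72), and Mki67, a marker of cycling cells (0.67), at the step where 11 glycolysis and pentose phosphate genes fell. In E vs D, Bub1 fell by 2.10, Birc5, a mitotic survival gene, by 2.05 and Ccnb2, a mitotic cyclin, by 1.87, while the metabolic genes were called 3 up and 3 down. The summed signal of the proliferation list was 85189 to 125428 in B, 48671 to 68388 in C, 70080 to 83640 in D and 33496 to 54781 in E. The D arrays thus lay above the C arrays and below the B arrays, whereas fraction D is usually described as resting cells. Markers of other cells moved between the same populations: the neutrophil and NK sums were higher in C, as given above, and 5 macrophage markers summed to 6448 to 10726 in C against 1203 to 1819 in D. Their part in the difference was not tested.

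**Figure D5:**
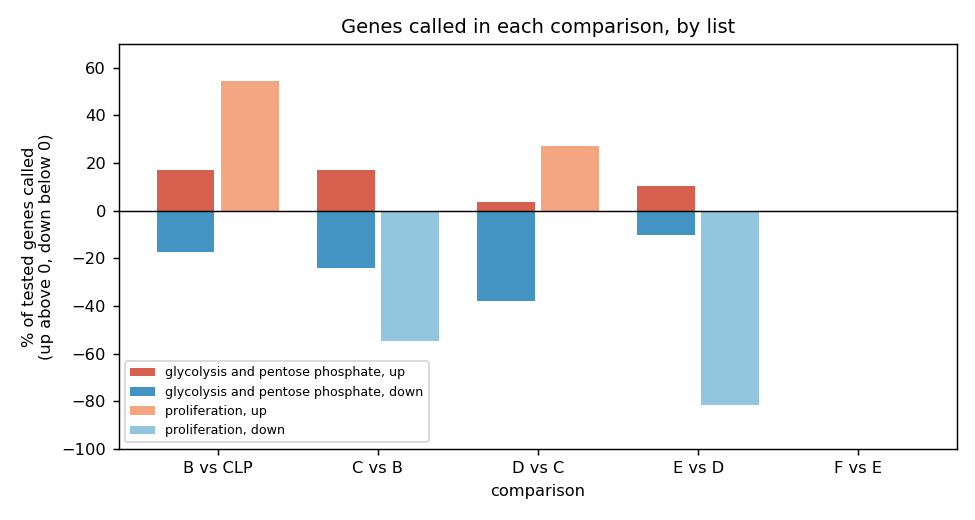
Percent of tested genes called up (above 0) or down (below 0) in 5 comparisons, for the 29 glycolysis and pentose phosphate genes and the 11 proliferation genes. In D vs C 37.9% of the metabolic genes fell and no proliferation gene did, and in E vs D 9 of the 11 proliferation genes fell. D vs B, where 3 of the 11 proliferation genes fell, is not shown.

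Further genes around the pathway were counted in the same comparisons. Of 25 tested further genes of glycolysis, pyruvate and gluconeogenesis, 7 fell (beside 13.6% of all genes) and 0 rose in D vs C, among them Fbp1, a fructose bisphosphatase (-1.75 ± 0.36, adjusted p = 4.14e-04), Slc16a7, the monocarboxylate transporter MCT2 (-1.49 ± 0.49, adjusted p = 0.0254), and the phosphoglucomutase Pgm1 (-1.29 ± 0.33, adjusted p = 0.00397). In E vs D, 3 of the 25 rose, Slc16a7 (2.37), the mitochondrial glycerol phosphate dehydrogenase Gpd2 (1.40) and the ADP-dependent glucokinase Adpgk (1.21), and none fell, beside 3.89% and 4.21% of all genes. None of 8 further pentose phosphate and ribose genes was called in D vs C by limma, with 4 at an unadjusted p under 0.05, beside 21.1% of all genes called. Tktl1 was the 1 called in D vs B (1.04), beside 30.6% of all genes.

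Of 19 tested regulators of the pathway, 1 rose and 4 fell in D vs C (median log2 difference 0.11), beside 7.46% and 13.6% of all genes. In E vs D, 1 regulator rose and 2 fell, beside 3.89% and 4.21% of all genes. Among the 19, Myc, a transcription factor that activates many glycolytic genes, had the largest change. It averaged 2737 ± 1006 (SD, n = 5) in C, 388 ± 158 (n = 5) in D and 1352 ± 164 (n = 5) in E, falling in D vs C by 2.73 ± 0.24 (adjusted p = 3.95e-11) and rising in E vs D by 1.80 ± 0.24 (adjusted p = 3.88e-07). Hif1a, which encodes the oxygen-regulated factor that shares many of these targets, went the other way in D vs C (1.32 ± 0.33, adjusted p = 0.00327). Egln1, the prolyl hydroxylase that marks that factor for degradation, fell by 1.15 ± 0.23 (adjusted p = 3.49e-04) and Stk11, the kinase upstream of AMPK, by 1.41 ± 0.25 (adjusted p = 4.37e-05).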

How the data were processed

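The authors deposited MAS5 signals, per the submitters' processing notes: linear intensity values, 1 per probe set and array, for 41 arrays, scaled by the authors to a trimmed mean of 500 on every array, as the values show. RNA was amplified with NuGEN Ovation Pico and carried a biotin label, per the labels. The MAS5 version and the genome build are not given in the sources used here. Amplification from the 3′ end and scaling to 1 mean can shift signals between populations.

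From 45101 probe sets, 64 controls were left out and 34945 named 1 gene. Signals were taken as log2(signal + 32), which understates changes of low signals, and no further normalization was applied. The 11947 genes at or above the array median on at least 5 arrays were fitted with limma (version 3.58.1; moderation by eBayes with its trend and robust options, which use statmod 1.5.0) in R 4.3.3, and the data.table package (version 1.17.8) read the files. All 7 group means were in 1 fit and genes were called at an adjusted p under 0.05 over all genes. Only this fit was tested on simulated data, in which each gene had the same spread in every population. In the arrays themselves the median SD of a gene was 0.79 in A and 0.25 in D. Promoters and figures used Python 3.11.15, pandas 2.3.3 and matplotlib 3.10.9. Groups and replicate numbers came from the sample titles.

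Every member is named, those called with the largest differences first; of other lists, up to 3 called genes per direction. Members and lists were chosen with earlier results of these data known. Alternatives were other pseudocounts, filters, normalizations and probe set choices, fits of 2 populations, array weights, the replicate block, no trend and no robust step, and arrays left out. The number of arrays limits the precision.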

Additional observations from a re-analysis of the deposited data

Results flagged for a closer look

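Single arrays stood far from the other arrays of their population for 19 of 203 combinations of a member and a population, by Dixon's test of the gap to the nearest array; chance alone gives about 1 in 20, or 10.15 of 203. Signals are given beside the range of the remaining arrays. Slc2a1 was 3694.8 on E array 1 (others 2966.1 to 3123.3). Slc2a3 read 321.9 on B array 1 (others 1112.1 to 2473.9). Hk2 stood at 2437.4 on B array 1 (others 976 to 1327.6). Pfkl gave 835.1 on B array 4 (others 165.4 to 317.7). Pfkp was 5115.8 on A array 7 (others 1907.4 to 2719.4). Aldoc read 1.1 on B array 5 (others 43 to 102.6). Pfkfb2 stood at 613.6 on B array 4 (others 91.4 to 199). Pfkfb4 gave 264.7 on CLP array 3 (others 110.4 to 160). Pkm was 606.6 on A array 4 (others 1687.6 to 3350.3). Ldha read 8046.2 on CLP array 2 (others 9143.4 to 10026.5), 4110.5 on A array 6 (others 10739.5 to 17532.3) and 4145 on F array 1 (others 5617.8 to 5874.5). Pdk3 stood at 59.1 on B array 1 (others 306.4 to 640). Pdha1 gave 303.7 on A array 7 (others 1154.7 to 2211.4) and 2520.7 on C array 2 (others 2179.9 to 2222.9). Pgd was 14953.1 on B array 4 (others 4330.8 to 7036.8), 4524.9 on E array 2 (others 2912.2 to 3170.9) and 1865.3 on F array 5 (others 2808 to 3192). Pgls read 1080.1 on C array 4 (others 1505.6 to 1663.7). B arrays 1 and 4 gave 6 of the 19 values and A arrays 4, 6 and 7 gave 4.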

How the results depend on the processing

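Of 97 called member differences, 56 kept their call in every alternative, 41 lost it in at least 1 of 14 settings or 41 runs without 1 array, and 0 reversed. Calls of members were 15 in A vs CLP, 12 in B vs A, 12 in D vs C and 6 in E vs D in the fit of all arrays. With only the 2 populations compared they were 7 in A vs CLP, 3 in B vs A, 22 in D vs C, 11 in E vs D and 3 in F vs E. With array weights they were 22 in D vs C, 11 in E vs D and 3 in F vs E. The share of all genes called under each setting is not given here, so a changed count is not a result about the members. The variable A arrays share their spread with the others in the joint fit. Without A arrays 4, 6 and 7, 9 were called in A vs CLP. In F vs E, 1 member (Ldhb) was called with a pseudocount of 1, a 75th percentile filter, quantile normalization, the mean of probe sets, the probe set with the highest median, or the replicate number as a block. Leaving out single arrays gave 12 to 16 calls in A vs CLP, 9 to 12 in B vs A, 9 to 10 in B vs CLP, 8 to 12 in C vs B (8 without C array 4), 9 to 11 in D vs C, 12 to 14 in D vs B, 5 to 6 in E vs D, 0 to 1 in F vs E (1 without F array 4), 16 to 17 in F vs CLP and 24 to 26 across populations. The deviations of same-numbered arrays correlated at 0.0351 to 0.127 in E vs D (mean 0.07, against -0.0175 for different numbers) and at 0.0501 to 0.12 in F vs E (mean 0.0824, against -0.0206), where 4 of 5 arrays of each population correlated best with their own number, and at -0.25 to 0.22 in the other comparisons. In no comparison was every pair over 0.1, so the numbers were not used as pairs; with the replicate number as a block, 10 members were called in D vs C and 6 in E vs D. The Aldoa to Aldoc ratio in F vs CLP, -1.22 with representative probe sets, was 0.053 with the mean of probe sets. Low signals near the pseudocount, as for Ldhb and Aldoc, limit the size of a difference.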

Other observations

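The serine branch, which leaves glycolysis at 3-phosphoglycerate and feeds one-carbon metabolism, was described from a separate list of 7 genes, all tested. In B vs CLP 2 rose, Psat1, an aminotransferase of serine synthesis (0.80 ± 0.18 SE on the log2 scale, limma adjusted p = 5.83e-04), and Mthfd1, a folate enzyme (1.22 ± 0.25, adjusted p = 2.83e-04), beside 8.77% of all genes. In C vs B 5 of the 7 fell, beside 8.8% of all genes, led by Mthfd1 (-2.08 ± 0.28, adjusted p = 4.14e-07). Phgdh, which encodes the first enzyme of serine synthesis, averaged 13334 ± 5956 (SD, n = 7) in B, 6974 ± 913 (n = 5) in C and 2412 ± 272 (n = 5) in D. Phgdh and Shmt2, a mitochondrial hydroxymethyltransferase, fell in D vs C by 1.52 ± 0.25 (adjusted p = 2.38e-05) and 1.49 ± 0.26 (adjusted p = 4.01e-05), and in D vs B 6 of the 7 were lower, beside 14.7% of all genes. The summed signal of the branch ran from 32197 to 50305 in B, from 14620 to 24244 in C and from 11087 to 14244 in D, with no overlap between these populations.

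The Gapdh control probe sets, which are outside the tested genes, gave 3′ signals of 9440.5 to 15787 in C, 5838 to 7538 in D and 5652 to 7573 in E, with the D arrays below all C arrays.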
